A study of Mus musculus with 25 samples.

Results

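The 13 arrays described here hold RNA of TG cardiac myocyte cultures, in which the transcription factor CHF1/Hey2 was overexpressed at a level that differed from culture to culture. They were chosen by genotype, out of 25 arrays in all, and were ordered by the log2 value of the Hey2 probe set within the 6 unstimulated and the 7 serum stimulated cultures. That order used a measured value, so the Hey2 level itself is a description and carries no test. The study asked which genes act downstream of CHF1/Hey2 when myocytes are stimulated to hypertrophy. TG myocytes came from neonatal transgenic mice in which the mlc2v promoter, that of a ventricular myosin light chain, directs CHF1/Hey2 to the myocardium, and WT myocytes (5 unstimulated and 7 serum stimulated arrays) came from mice without the transgene. All cultures were kept in serum-free medium, and the stimulated ones then received 20% fetal bovine serum for 24 hours. The founder line, the strain and the litters were not given in the sources used here, so p-values measure the spread between these arrays.

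Hey2 is a basic helix-loop-helix repressor of the Hairy family. It acts downstream of Notch receptors in many tissues, is found in compact ventricular myocardium during development, binds E-box sequences together with partner proteins and represses atrial genes in the ventricle. In cardiac myocytes it has been studied as an inhibitor of hypertrophic growth. Since the transgene was driven by a myocyte promoter, every gene was also set against the mean of 4 genes of the contractile apparatus, Myh6 and Myh7 (cardiac myosin heavy chains), Tnnt2 (cardiac troponin T) and Actn2 (alpha-actinin of the Z-disc), called the myocyte mean below.

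In unstimulated TG cultures, Hey2 stood at a log2 value of 8.55 in replicate 2, 8.32 in replicate 6, 8.01 in replicate 3, 7.82 in replicate 1, 7.08 in replicate 4 and 7.08 in replicate 5. In serum stimulated TG cultures it stood at 9.36 in replicate 4, 9.11 in replicate 7, 9.08 in replicate 3, 8.84 in replicate 2, 8.42 in replicate 1, 8.17 in replicate 5 and 7.94 in replicate 6. The highest culture thus exceeded the lowest 2.78-fold in the unstimulated set and 2.68-fold in the serum stimulated set. WT cultures lay below all TG cultures of their own set, between 6.12 and 6.37 unstimulated and between 6.59 and 7.36 with serum. Levels were not compared between the sets, because the deposited values of the sets stand on different scales. The probe set cannot tell transgene from native Hey2.

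The cultures low in Hey2 were also low in the myocyte mean. The myocyte mean was 12.29 in unstimulated replicate 2, the culture highest in Hey2, and 11.06 and 10.62 in replicates 4 and 5, the lowest. With serum it was 12.46 in replicate 4 and 11.26 in replicate 6, again the cultures highest and lowest in Hey2. The order of the 6 unstimulated cultures was the same by either measure (Spearman's rho 1.00, Pearson's r 0.93), and the 7 serum stimulated cultures were ordered nearly alike (rho 0.89, r 0.90). Without the 2 cultures farthest from the median Hey2, r was 0.90 in either set (4 and 5 cultures). Over all 13 arrays with the set means taken out r was 0.91, and it was 0.93 over the 10 arrays left without unstimulated replicates 4 and 5 and serum stimulated replicate 6, which stood lowest in myocyte transcripts. Of its 4 genes Tnnt2 followed Hey2 least, with r of 0.83 in either set (rho 0.54 and 0.79) and of −0.47 over the 4 unstimulated arrays left without replicates 4 and 5. The study reports that staining of each preparation for sarcomeric myosin found nearly all cells to be myocytes, and gives no value per culture. From these bulk arrays alone, fewer myocytes in a culture and less of these RNAs per myocyte cannot be told apart.

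WT cultures ran from 10.69 to 12.01 in the myocyte mean unstimulated and from 11.17 to 12.17 with serum, without the order by native Hey2 seen in TG cultures. Pearson's r was −0.34 over 5 unstimulated and −0.12 over 7 serum stimulated WT arrays (rho 0.40 and −0.29), and the first was 0.78 over 3 arrays without replicates 2 and 4. Per log2 unit of the myocyte mean, Hey2 differed by 0.92 (SE 0.13) log2 units among TG arrays and by −0.07 (SE 0.14) among WT arrays. These slopes use the values that ordered the cultures and are given as a description.

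**Figure D1:**
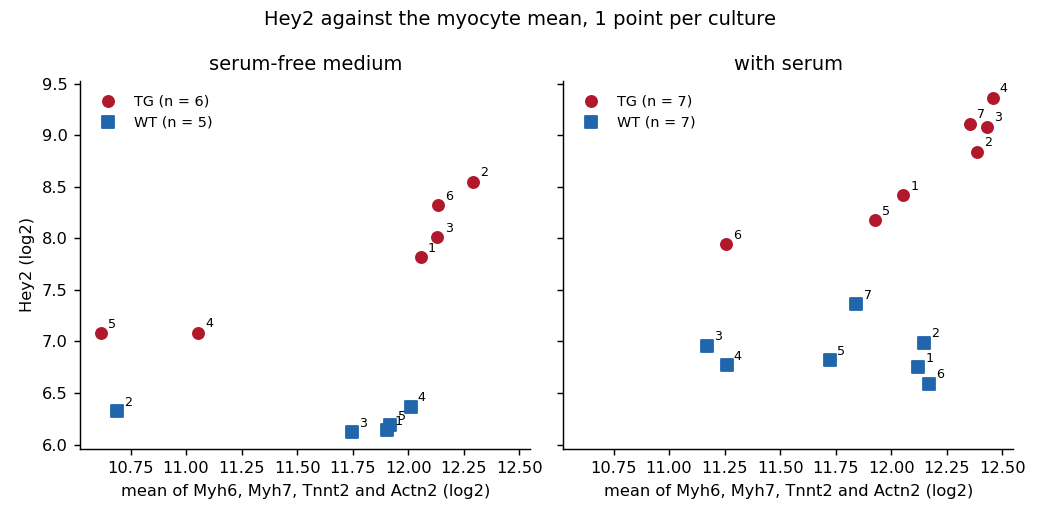
Hey2 (log2, vertical axis) against the mean of Myh6, Myh7, Tnnt2 and Actn2 (log2, horizontal axis) in unstimulated and serum stimulated cultures, 1 numbered point per array, TG as circles and WT as squares. TG points run from lower left to upper right in both panels, while WT points stay between 6.12 and 7.36 in Hey2 across the whole range of the myocyte mean.

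Myl2, the ventricular myosin light chain gene whose promoter has the name mlc2v, followed Hey2 among TG cultures. It ranged from 11.84 in unstimulated replicate 5 through a median of 12.70 to 12.94 in replicate 2, and with serum from 11.98 in replicate 6 through 12.66 to 12.90 in replicate 4. The lowest and highest cultures were those lowest and highest in Hey2 in both sets. Its r with Hey2 was 0.88 over the 6 unstimulated arrays, falling to 0.35 without the 2 lowest, replicates 4 and 5, and 0.99 over the 7 serum stimulated arrays. WT values were −0.33 and −0.20. Myl2 rose by 0.60 (SE 0.08) log2 units per log2 unit of Hey2 over both sets (limma adjusted p = 0.00037), with 0.46 (adjusted p = 0.0929) without the 3 cultures low in the myocyte mean.

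A slope, in log2 units of a gene per log2 unit of Hey2, was fitted for every probe set within each set and over both with the set means taken out, and a gene was called at a limma adjusted p under 0.05. Among unstimulated cultures 388 genes rose and 324 fell with Hey2, or 1.95% and 1.63% of the 19933 genes tested (3.57% in all). Among serum stimulated ones 316 rose (1.59%) and 375 fell (1.88%), 3.47% in all. Over all 13 cultures 1337 genes rose (6.71%) and 1955 fell (9.81%), 16.5% in all. The sets share no array, so the direction of a gene in one could be looked up in the other. Of the 712 genes called in unstimulated cultures 699 (98.2%) had a slope of the same sign with serum, against 68.4% of all genes. Of the 691 called with serum, 670 (97.0%) had the same sign unstimulated, and the 204 genes called in both sets (28.7% and 29.5% of the lists) ran the same way. The within-set counts depend on single cultures. Unstimulated, 926 probe sets were called (2.6% of all). In refits without 1 culture, none was called without replicate 2, 3, 4 or 5, 143 without replicate 6 and 514 without replicate 1. With serum 887 were called (2.49%), and refits called at most 99 without any 1 culture and none without replicate 6. Refit counts take in every probe set called, whether or not it was called before. Over both sets 4443 probe sets were called (12.5%). The refit without unstimulated replicate 5 called 2857, and that without serum stimulated replicate 6 called 2831. Over both sets, leaving out the 3 cultures low in myocyte transcripts left 134 genes called (77 rising, 57 falling, 0.672%), 130 of them among the 3292, from 10 of the same 13 arrays. Of the 3292, 3287 (99.8%) kept their direction, against 81.2% of all genes, in arrays shared by both fits. Those 3 cultures were also the lowest in Hey2 of their sets, so leaving them out narrowed the range of Hey2. A call lost in that fit does not show that a slope was absent.

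**Figure D2:**
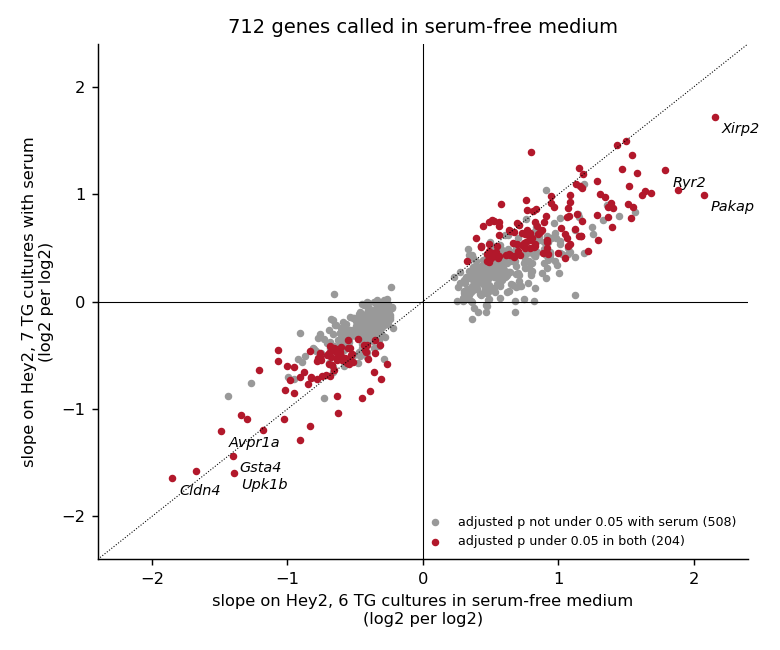
Slopes on Hey2 of the 712 genes called in the 6 unstimulated TG cultures (horizontal axis) against their slopes in the 7 serum stimulated TG cultures (vertical axis), both in log2 per log2 unit. Red points are the 204 genes with an adjusted p under 0.05 in both sets, and 699 of the 712 have the same sign in both sets.

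Among the genes with the steepest rise were Srl, Xirp2 and Ryr2, which serve contraction and calcium release. Srl, which encodes the calcium-binding sarcalumenin of the sarcoplasmic reticulum, ranged from 7.18 through a median of 10.18 to 10.53 unstimulated and from 7.43 through 10.02 to 10.78 with serum. Xirp2, an actin-binding protein of the intercalated disc and Z-disc, ranged from 6.96 through 8.83 to 10.03 and from 7.76 through 9.35 to 10.35. Ryr2, the calcium release channel, ranged from 6.84 through 8.83 to 9.63 and from 8.19 through 9.93 to 10.28. The low end was held by replicate 4 (Xirp2) or 5 (Srl and Ryr2) unstimulated and by replicate 6 with serum, and the high end by replicate 6 (Xirp2) or 2 unstimulated and by replicate 4 with serum. The slopes were 2.06 (SE 0.23), 1.95 (SE 0.14) and 1.52 (SE 0.16), with adjusted p of 0.000171, 1.82e-05 and 0.000151. With the 3 cultures low in myocyte transcripts left out, the slope of Xirp2 was 1.81 (SE 0.23, adjusted p = 0.0197), while Srl stood at 1.41 (SE 0.24, adjusted p = 0.0459) and Ryr2 at 0.88 (SE 0.13, adjusted p = 0.0292).

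As groups, 21 of 22 other sarcomere genes rose with Hey2 over both sets and none fell, with a median slope of 0.70, where 6.71% of all genes rose with a median of 0.0033 over all genes. Titin (Ttn), the giant spring of the sarcomere, rose by 0.81 (SE 0.09) and Myom1, a protein of the M-band, by 1.40 (SE 0.16). Myot, the Z-disc protein myotilin, was the member not called (−0.19, SE 0.11) and is named after its value was seen. Of 18 calcium handling genes 14 rose and none fell (77.8%, median 0.82), Cacna1c, the pore of the L-type calcium channel, by 1.36 (SE 0.11, adjusted p = 2.86e-05). Of 23 cardiac transcription factors 15 rose (65.2%), among them Mef2c (0.68), Irx4 (0.68) and Myocd (1.06), and of 12 hypertrophy markers 9 rose (75%). Subunits of the respiratory chain rose in 30 of 41 cases (73.2%) with a smaller median of 0.24, glycolysis genes in 11 of 20 (55%, Hk2, hexokinase 2, by 1.06), and genes of fatty acid oxidation in 10 of 21, while Cpt1a, the carnitine palmitoyltransferase of liver type, fell by 0.40. Without the 3 cultures low in myocyte transcripts 0.672% of all genes were called. The counts were then 6 of 22 sarcomere genes, 5 of 18 calcium handling genes, 0 of 23 transcription factors, 2 of 12 hypertrophy markers and 0 of 41 respiratory chain subunits. Their medians were 0.44, 0.42, 0.11, 0.32 and 0.17. Of glycolysis genes 1 of 20 and of fatty acid oxidation genes 1 of 21 was then called, with medians of 0.15 and 0.06.

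The natriuretic peptide genes, markers of myocyte stress and hypertrophy, ran along the same order. Nppa ranged from 12.22 through 12.99 to 13.12 unstimulated and from 12.84 through 13.59 to 13.67 with serum, and Nppb from 9.75 through 11.23 to 11.91 and from 10.99 through 11.73 to 12.15. The culture lowest in Hey2 was lowest, and the culture highest in Hey2 highest, for both genes in both sets. Nppa rose by 0.53 (SE 0.07) and Nppb by 1.07 (SE 0.13) per log2 unit of Hey2 (adjusted p = 0.000445 and 0.000248). Neither was called without the 3 cultures low in myocyte transcripts, with slopes of 0.30 and 0.68 (adjusted p = 0.0965 and 0.056). Gata4, a transcription factor that activates both genes, rose by 0.34 (SE 0.09, adjusted p = 0.024), and without those cultures its slope was 0.05 (SE 0.08, adjusted p = 0.837).

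**Figure D3:**
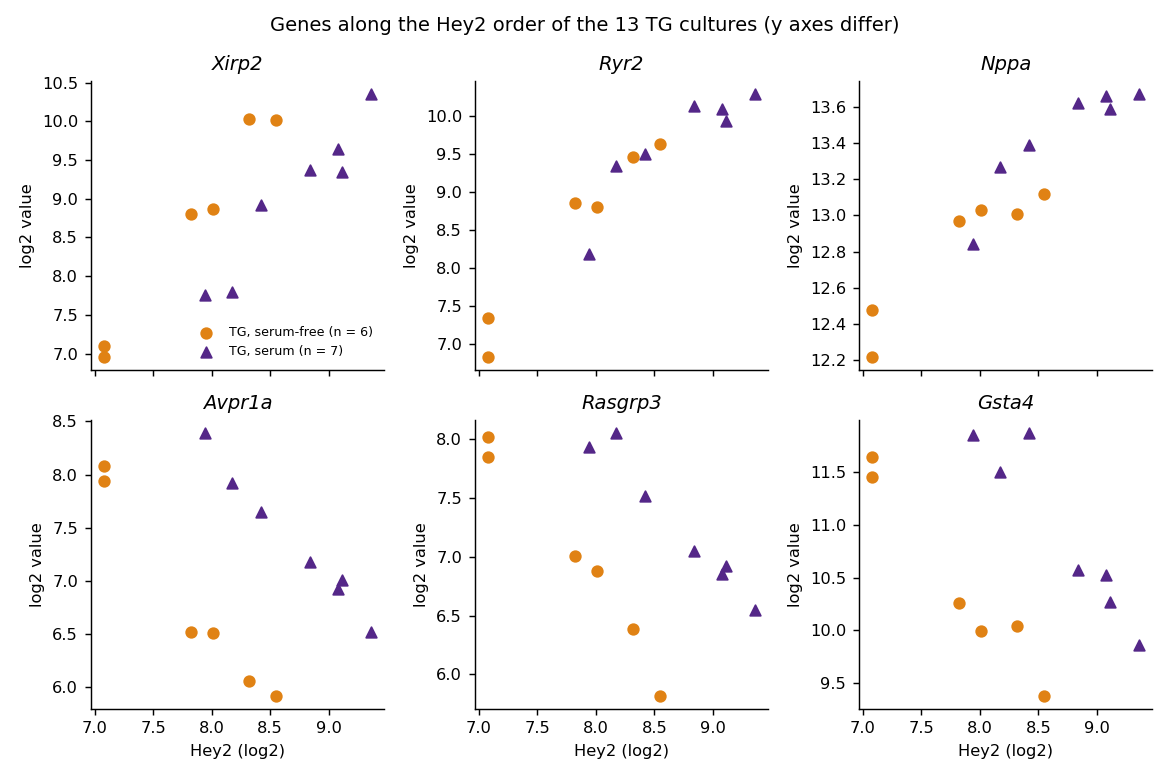
Log2 values of 6 genes (vertical axes, which differ) against Hey2 (log2, horizontal axis) in the 6 unstimulated (circles) and 7 serum stimulated (triangles) TG cultures. Xirp2, Ryr2 and Nppa rise and Avpr1a, Rasgrp3 and Gsta4 fall from the lowest to the highest Hey2 level in both sets.

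Among the genes with the steepest fall were Cldn4, Upk1b and Efemp1. Cldn4, a tight junction claudin, ranged from 6.54 through 7.35 to 9.70 unstimulated and from 7.40 through 8.11 to 9.95 with serum, with unstimulated replicate 5 and serum stimulated replicate 6 at the top. Upk1b, a uroplakin of urothelium and mesothelium, ranged from 5.90 through 6.87 to 8.21 and from 8.44 through 9.35 to 10.70. Efemp1, the matrix glycoprotein fibulin-3, ranged from 6.34 through 7.41 to 9.13 and from 6.44 through 7.19 to 8.62. The cultures highest in Hey2, unstimulated replicate 2 and serum stimulated replicate 4, held the lowest value of Upk1b and Efemp1 in their sets. Slopes were −1.75 (SE 0.17) for Cldn4, −1.49 (SE 0.11) for Upk1b and −1.63 (SE 0.16) for Efemp1, with adjusted p of 9.48e-05, 2.48e-05 and 7.82e-05. Without the 3 cultures low in myocyte transcripts Cldn4 and Upk1b were called (adjusted p = 0.0294 and 0.0188), and Efemp1 had −1.54 (adjusted p = 0.0546).

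Genes of glutathione and aldehyde metabolism fell in cultures high in Hey2, although that list was drawn up after leading genes had been seen and supports nothing by itself. Of its 27 measured members 20 fell and none rose (74.1% called), with a median slope of −0.49, where 9.81% of all genes fell. Gsta4, a glutathione transferase for lipid aldehydes, ranged from 9.38 through 10.15 to 11.64 unstimulated and from 9.86 through 10.57 to 11.87 with serum. Nqo1, a quinone reductase, ranged from 7.88 through 8.88 to 10.19 and from 8.20 through 8.72 to 10.29. Values were lowest in the culture highest in Hey2 in both sets for both genes. Gsta4 fell by 1.42 (SE 0.12), Nqo1 by 1.29 (SE 0.15) and Hmox1, the heme-degrading oxygenase, by 1.18 (SE 0.13), with adjusted p of 3.67e-05, 0.000208 and 0.000192. Srxn1, the peroxiredoxin-repairing sulfiredoxin, fell by 1.18 (SE 0.15). Near-identical copies such as the Gsta and Gstm genes may share signal through their probes. Without the 3 cultures low in myocyte transcripts 3 of the 27 were called, against 0.672% of all genes, and the median was −0.39.

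Markers of other cells differed in their relation to the Hey2 order. Of 20 endothelial genes 6 fell (30%) and none rose, led by Cdh5 (−1.07) and Tek (−0.83), and the mean level of the list ran from 5.17 to 5.60 in unstimulated and from 5.51 to 6.34 in serum stimulated cultures, with r to Hey2 of −0.61 and −0.88 (rho −0.60 and −0.79, 6 and 7 arrays). Without the 2 cultures farthest in Hey2 these were 0.24 and −0.61, so the unstimulated relation rests on replicates 4 and 5. Of 20 epicardial and mesothelial genes 5 fell (25%, Upk1b, Aldh1a1, Krt19, Krt7 and Podxl), and the list mean (6.40 to 6.76 and 6.92 to 7.31) had an r to Hey2 of −0.92 and −0.95 (rho −0.77 and −0.86), and of −0.43 and −0.91 without the 2 farthest. Of 25 fibroblast and matrix genes 4 fell and 2 rose (24%), with list means between 8.94 and 9.59 and r of −0.17 and −0.58. Smooth muscle genes rose in 7 of 15 cases, led by Cnn1 (0.94) and Myl9 (0.98), and fell in 1 (53.3% called). Of 19 macrophage genes 3 rose (C1qa, C1qb and C1qc), a share of 15.8% near the 16.5% of all genes, and their list mean had r of 0.77 unstimulated (0.44 without replicates 4 and 5) and 0.02 with serum. Without the 3 cultures low in myocyte transcripts, where 0.672% of all genes were called, 2 epicardial genes were called and no endothelial, fibroblast, smooth muscle or macrophage gene. The slopes of C1qa, C1qb and C1qc were then 0.36, 0.10 and 0.11. The part of these other cells in the slopes was not tested.

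Dividing-cell and stress genes lay lower in cultures high in Hey2. Of 30 cell cycle genes 10 fell and none rose (33.3% called, median slope −0.24), where 9.81% of all genes fell and 16.5% were called. Rrm2, a subunit of ribonucleotide reductase, fell by 0.55 (SE 0.07). Of 25 immediate early and stress genes 8 fell, among them Jun (−0.45), Junb (−0.23) and Ddit3 (−0.57), and 1 rose (Ier3), 36% in all. None of either list was called without the 3 cultures low in myocyte transcripts, where 0.672% of all genes were called and the medians were −0.21 and −0.06.

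Of 23 genes of the Hey and Hes family and its partners 1 rose and 6 fell (30.4%, against 16.5% of all genes called). Hey1 had a slope of −0.14 (SE 0.09) and Heyl of 0.16 (SE 0.06), neither called (adjusted p = 0.366 and 0.0865). Bhlhe40, a helix-loop-helix repressor of the circadian clock, was the member that rose: it ranged from 7.76 through 8.05 to 8.40 unstimulated and from 8.80 through 9.45 to 9.68 with serum, lowest and highest in the cultures lowest and highest in Hey2. Its slope was 0.49 (SE 0.05, adjusted p = 0.000149). Among those that fell were the inhibitors of helix-loop-helix factors, Id1 by 0.62, Id2 by 0.83 (SE 0.10), Id3 by 0.44 and Id4 by 0.56, as did the corepressor Tle3 (0.37) and the deacetylase Sirt1 (0.50). Of 29 Notch pathway genes 5 were called (17.2%), a share near that of all genes. The members were the receptors Notch1 (−0.41) and Notch3 (−0.43), the ligand Jag1 (−0.59) and Numbl (−0.51), which fell, and Maml3 (0.30), which rose. Without the 3 cultures low in myocyte transcripts, where 0.672% of all genes were called, none of the 29 Notch pathway genes was called. Bhlhe40 was then the only call among the 23 (limma adjusted p = 0.0201), while Id1 had −0.37 and Id2 −0.67 (adjusted p = 0.211 and 0.114). Of 17 atrial and ventricular chamber genes 6 rose and 1 fell (41.2%, against 16.5% of all genes called), with a median slope of 0.13. The 1 that fell was Myl7, the atrial light chain. It went from 8.77 through 9.48 to 10.25 unstimulated and from 10.18 through 10.63 to 11.55 with serum. Its slope was −0.78 (SE 0.15, limma adjusted p = 0.00424, and 0.0907 without the 3 cultures). Nppa, which is an atrial gene too, rose.

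Because Hey2 and the myocyte mean shared 82.6% of their variance among TG cultures, the slopes on the 2 measures could be separated only in part. On the myocyte mean alone, 1620 genes rose (8.13%) and 2138 fell (10.7%), 18.9% in all, from 5017 probe sets called (14.1%). A joint fit then gave the slope on Hey2 at an equal myocyte mean and the slope on the myocyte mean at equal Hey2. Their overlap inflates the variance of either slope 5.73-fold, and 9 residual degrees of freedom were left. No gene was called on Hey2 at an equal myocyte mean (0 of 19933, 0%), the smallest adjusted p over all probe sets was 0.0745, and 2235 probe sets had an unadjusted p under 0.05. On the myocyte mean at equal Hey2, 217 genes rose (1.09%) and 10 fell (0.0502%), 1.14% in all. In probe sets the count was 262 (0.737%). Refits called 15 without unstimulated replicate 5, 89 without replicate 1 and 146 without replicate 3. They called 142 without serum stimulated replicate 4, 161 without replicate 5, and 0 without the 3 cultures low in myocyte transcripts. The slope of the 1337 genes that rose with Hey2 alone had a median of 0.37 on Hey2 alone and of 0.09 at an equal myocyte mean, and for the 1955 that fell the medians were −0.29 and −0.15. A p that misses the threshold here does not show that Hey2 had no slope of its own.

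**Figure D4:**
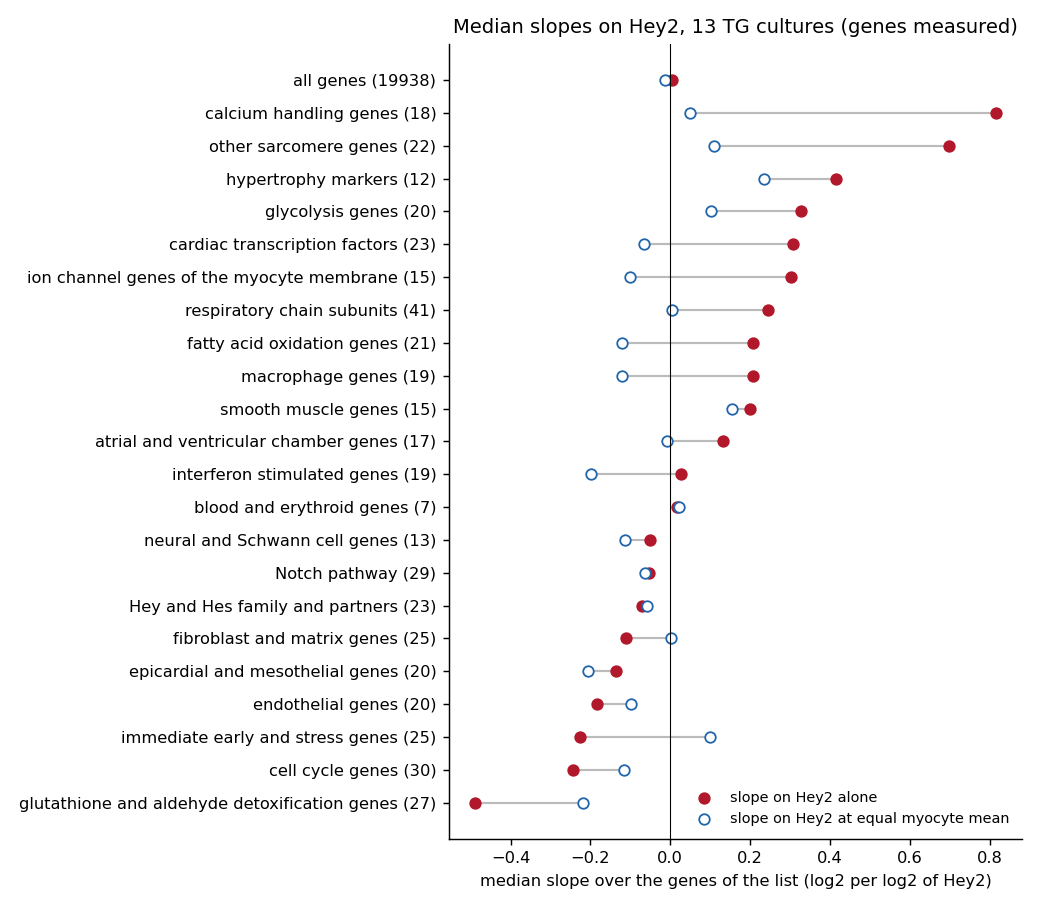
Median slope on Hey2 over the genes of each list in the 13 TG cultures, on Hey2 alone (filled) and at an equal myocyte mean (open), in log2 per log2 unit, with the number of genes measured in parentheses. The medians of calcium handling and other sarcomere genes go from 0.82 and 0.70 to 0.05 and 0.11, and that of the detoxification genes from −0.49 to −0.22.

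At an equal myocyte mean the median slope over all genes was −0.01. It was 0.23 for hypertrophy markers (0.41 on Hey2 alone), 0.15 for smooth muscle genes (0.20 on Hey2 alone), 0.11 for sarcomere genes, 0.05 for calcium handling genes, 0.004 for respiratory chain subunits and −0.07 for cardiac transcription factors, and no member of any list was called. Nppa had a slope of 0.07 (SE 0.09), Nppb of 0.37 (SE 0.22) and Gata4 of −0.26 (SE 0.11). Xirp2 had a slope of 1.80 (SE 0.33, unadjusted p = 0.000173) on Hey2, with 0.16 (SE 0.34) on the myocyte mean, and was not called after adjustment in limma (adjusted p = 0.321). The genes with the smallest p on Hey2 at an equal myocyte mean included Rasgrp3, a guanine nucleotide exchange factor for Ras and Rap, at −1.35 (SE 0.19), Avpr1a, a vasopressin receptor, at −0.88 (SE 0.13), Upk1b at −1.61 (SE 0.28) and Anxa8, a calcium-dependent phospholipid-binding annexin, at −1.22 (SE 0.21). Ephb3, an ephrin receptor, had the smallest of these p-values and a slope of −0.80 (SE 0.11), yet on Hey2 alone it had −0.25 (SE 0.08) and was not called (adjusted p = 0.0756). Igfbp5, Tekt5 and Gcnt1 were like it, with slopes on Hey2 alone between −0.23 and −0.02.

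Correlations within each set were used to separate genes by the measure they lay closer to, as a description without a test. With r of at least 0.8 in size and the same sign in both sets, 387 genes (1.94%) lay closer to Hey2 than to the myocyte mean in both sets, 109 rising and 278 falling. By the same rule 1217 genes (6.10%) lay closer to the myocyte mean, 721 rising and 496 falling. The leading genes of the first kind were Avpr1a, Osbpl3, Rasgrp3, Marchf3, Flrt2, Cfap300, Itga9, Pir, Bhlhe40 and Ankrd23. Those of the second kind were Nppa, Ppp1r12b, Fhod3, Myom1, Asb2, Rcan2, Mfn2, Cap2, Prkag2 and Acadl, of which Myom1 and Fhod3 build sarcomeres and Acadl oxidises fatty acids.

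Avpr1a and Rasgrp3 show the first kind in full. Avpr1a ranged from 5.92 in replicate 2 through 6.52 to 8.08 in replicate 5 unstimulated, and from 6.52 in replicate 4 through 7.18 to 8.39 in replicate 6 with serum. Rasgrp3 ranged from 5.82 in replicate 2 through 6.95 to 8.02 in replicate 4, and from 6.55 in replicate 4 through 7.05 to 8.05 in replicate 5. Both fell as Hey2 rose, by 1.36 (SE 0.08) and 1.21 (SE 0.08), with adjusted p of 8.18e-06 and 1.43e-05. Without the 3 cultures low in myocyte transcripts the slopes were −1.07 (SE 0.08, adjusted p = 0.00361) and −1.28 (SE 0.12, adjusted p = 0.01). On the myocyte mean in WT cultures, Avpr1a fell by 1.23 (limma adjusted p = 0.00392) and Rasgrp3 had −0.50 (adjusted p = 0.0841). The slopes of the 2 genes were not tested against each other. In TG cultures the slope of Avpr1a on the myocyte mean lay between −1.473 and −1.275 with any 1 array left out.

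WT cultures gave a view of the myocyte mean without the transgene. In them 867 genes rose (4.35%) and 408 fell (2.05%) with it, 6.4% in all. Of the 3758 genes called on the myocyte mean in TG cultures, 3692 (98.2%) had the same sign in WT, against 71.5% of all genes, and 1176 were called in both (31.3% of the TG list and 92.2% of the WT list). Of the 227 genes called on the myocyte mean at equal Hey2, 212 (93.4%) were called in WT, where they make up 16.6% of the WT list. Sarcomere genes were called in 20 of 22 cases in WT, and Ryr2 (1.74), Fhod3 (1.49) and Srl (1.78) rose there, with slopes of 1.61, 1.50 and 2.18 on the myocyte mean in TG cultures. Gsta4, Upk1b and Efemp1, which fell with the myocyte mean by 1.32, 1.34 and 1.57 in TG cultures, had slopes of −0.62, −0.50 and −0.57 in WT and were not called there. The TG and WT slopes were set against each other in the fit over 25 arrays, and none was called (0%), while 1329 probe sets had an unadjusted p under 0.05. In WT 1600 probe sets were called (4.5%), and refits called 1037 without serum stimulated replicate 3 and 1045 without replicate 4.

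Few probe sets were called between TG and WT cultures as groups. None passed in limma between unstimulated groups (0%), where 2006 had an unadjusted p under 0.05, and 3 passed with serum (0.00844%), of which Hey2 was the only one named for 1 gene. The smallest adjusted p between unstimulated groups was 0.286, so Hey2 itself was missed there, although every TG value lay above every WT value. The study reports Hey2 as changed in that comparison, by its p-value. The count of 0 therefore does not show that the unstimulated groups were alike.

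The slope on Hey2 differed between unstimulated and serum stimulated cultures for 5 probe sets (0.0141% of those tested), of which 1 is named, Mir208a (0.00502% of genes). This microRNA lies within the gene of the alpha myosin heavy chain, Myh6, on chromosome 14, and takes part in the control of myosin isoforms and stress responses. Its mature forms, from RefSeq (GRCm38.p6, minus strand), are printed because it was the single named probe set whose fitted slopes differed between the sets. Capitals mark the seed, bases 2 to 8.
mmu-miR-208a-3p, chr14:54949072-54949093: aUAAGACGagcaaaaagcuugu
mmu-miR-208a-5p, chr14:54949107-54949128: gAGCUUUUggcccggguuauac
mmu-miR-208b-3p, chr14:54975710-54975731: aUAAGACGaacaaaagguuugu
The last of these belongs to Mir208b, which was not measured as a gene of its own here, and is shown because its seed is the same as that of miR-208a-3p.

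The Mir208a probe set stood at 4.26, 4.24, 4.42, 4.27, 4.14 and 4.18 in unstimulated replicates 2, 6, 3, 1, 4 and 5, in falling order of Hey2. With serum it stood at 6.48, 6.28, 5.68, 5.77, 4.93, 4.77 and 3.80 in replicates 4, 7, 3, 2, 1, 5 and 6, again in falling order of Hey2. The unstimulated values lay close together, while the serum stimulated ones fell with Hey2 except that replicates 3 and 2 changed places. Its slope on Hey2 was 0.08 (SE 0.06, adjusted p = 0.587) unstimulated and 1.71 (SE 0.18, adjusted p = 0.0152) with serum, a difference of 1.63 (SE 0.20, adjusted p = 0.0318). Myh6 itself had slopes of 1.54 (SE 0.21) and 0.88 (SE 0.19). In WT the Mir208a values ran from 4.02 to 4.25 unstimulated and from 4.09 to 6.35 with serum. All unstimulated values lay below the median of all probe sets on their arrays, 4.99 to 5.04, so a slope there may have been too dim to see, and the difference of slopes does not show that the relation to Hey2 changed with serum. The probe set may read precursor or host transcript. No probe set differed between the sets any more without unstimulated replicate 1, 2, 3, 4 or 6 or serum stimulated replicate 6 or 7, while 1 did without unstimulated replicate 5 or serum stimulated replicate 3.

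**Figure D5:**
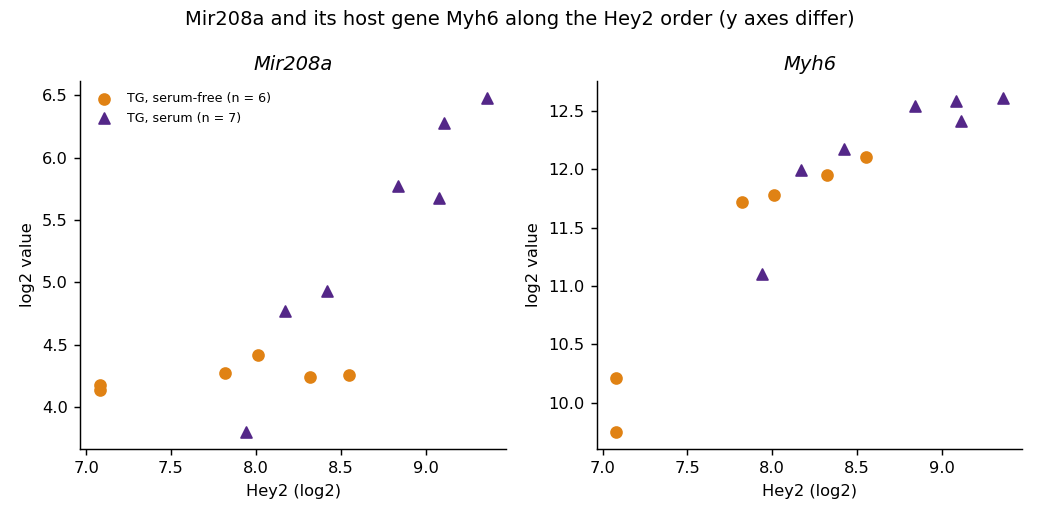
Log2 values of Mir208a and of its host gene Myh6 (vertical axes, which differ) against Hey2 (log2, horizontal axis) in the 6 unstimulated (circles) and 7 serum stimulated (triangles) TG cultures. Mir208a stays between 4.14 and 4.42 in unstimulated cultures and reaches from 3.80 to 6.48 with serum, while Myh6 rises with Hey2 in both sets.

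Hey proteins bind the E-box CACGTG and the related CACGCG and CACGAG, so the 250 bases before to 50 bases after the start of each gene were searched for these on both strands in RefSeq promoters (GRCm38.p6), available for 15614 of the genes. CACGTG was present in 9.50% of all genes, in 10.4% of those that rose with Hey2 and in 12.6% of those that fell. For CACGCG the shares were 14.9%, 19.2% and 19.8%, and for CACGAG 8.74%, 12.1% and 10.6%. The differences were not tested. Genes of detoxification were searched for the antioxidant response core TGACNNNGC, found in 6 of 21 (28.6%, against 15.2% of all genes), and for the GCGTG core that the dioxin receptor binds, found in 9 of 21 (42.9%, against 44.4%). In genes that rose and that fell with Hey2, TGACNNNGC was present in 17.5% and 17.9%, and GCGTG in 54.2% and 56.0%. These shares too were above those of all genes (15.2% and 44.4%), and the differences were likewise not tested. Every match to CACGCG is also a match to GCGTG. A match is a string of letters and not a bound site.

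The upstream sequences of 3 genes with a match are printed to show where it lies, each the 250 bases before the start with the match in capitals on the printed strand. They were picked after values were seen: Ryr2 among the genes that rose, Efemp1 among those that fell, and Flrt2, an adhesion protein with a slope of −0.56 (SE 0.04), among those closer to Hey2 than to the myocyte mean.
Ryr2, chr13:12106946-12107195, minus strand, 1 match 73 bases before the start: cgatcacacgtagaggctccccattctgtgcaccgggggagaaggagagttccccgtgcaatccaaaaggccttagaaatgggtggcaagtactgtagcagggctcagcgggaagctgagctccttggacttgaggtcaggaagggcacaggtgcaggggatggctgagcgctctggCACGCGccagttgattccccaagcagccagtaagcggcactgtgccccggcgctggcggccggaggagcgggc
Efemp1, chr11:28852955-28853204, plus strand, 1 match 78 bases before the start: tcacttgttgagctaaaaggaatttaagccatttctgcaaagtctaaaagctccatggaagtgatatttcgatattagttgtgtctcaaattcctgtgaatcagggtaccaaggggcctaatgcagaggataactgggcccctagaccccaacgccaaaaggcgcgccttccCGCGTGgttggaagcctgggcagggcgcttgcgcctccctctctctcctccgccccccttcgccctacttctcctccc
Flrt2, chr12:95691976-95692225, plus strand, 1 match 171 bases before the start: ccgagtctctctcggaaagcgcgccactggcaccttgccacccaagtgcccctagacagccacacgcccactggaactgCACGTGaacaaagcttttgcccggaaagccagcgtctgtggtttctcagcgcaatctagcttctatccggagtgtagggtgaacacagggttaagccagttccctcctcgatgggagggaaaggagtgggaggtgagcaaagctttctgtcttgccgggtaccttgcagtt
In Efemp1 the match to CACGCG is on the other strand and reads CGCGTG here. The start is the one used for the RefSeq promoter, and it need not be the first of the gene. The full span of Flrt2 begins at chr12:95692006 and that of Efemp1 at chr11:28853154, inside their printed windows. Part of each of these windows therefore lies within the gene, and so does the Flrt2 match. Avpr1a and Rasgrp3, which led the genes closer to Hey2, had none of the 5 searched strings in their windows.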

How the data were processed

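RNA of 25 cardiac myocyte cultures was hybridised by the authors to Affymetrix Mouse Gene 1.0 ST arrays. The deposited values are log2 signals of 35557 probe sets, summarised by the authors with RMA in Expression Console 1.1 (per the submitters' processing notes). Depth does not apply to arrays, and precision is limited by the number of arrays. Of the probe sets 21789 carried 1 symbol, 1621 several and 12147 are unnamed here. A gene was read from its probe set with the highest mean, which gave 19938 genes, and symbols were updated to RefSeq (GRCm38.p6). Slopes were fitted with limma 3.58.1 (lmFit and eBayes, R 4.3.3) to all probe sets, with Benjamini-Hochberg adjustment and a threshold of 0.05. Counts of slopes leave out Hey2 and the 4 genes of the myocyte mean (the TG and WT difference of myocyte slopes leaves out only the latter), and the counts of TG against WT include them all. The fits were tested on simulated data.

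Members and lists were chosen with earlier results of these data known. The text names a fixed set of genes, the 10 with the largest slope in each direction, the 10 leading each correlation class and up to 4 per list. There were 21 fixed lists and 8 lists added after values were seen, and of their 576 entries together 539 matched. Alternatives were normalization, centring, filters, moderation, array weights, set scale, myocyte measure, a replicate block and leaving out arrays.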

Additional observations from a re-analysis of the deposited data

Results flagged for a closer look

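Unstimulated WT replicate 2 stood far below the other WT arrays of its set in the myocyte mean (10.69, nearest 11.75), Myl2 (11.92, nearest 12.45), Srl (7.40, nearest 8.99), Ryr2 (6.73, nearest 8.52), Cacna1c (5.92, nearest 6.89), Fhod3 (5.93, nearest 7.61), Nppa (12.28, nearest 12.82) and Nppb (9.49, nearest 10.65). Gata4 in serum stimulated TG replicate 6 was 10.06, with 10.44 in the nearest array. These are 9 of 100 groups of values examined for a distant sample, where chance alone picks out about 1 in 20 independent groups. All but the Gata4 value come from the same WT array, so the 9 are not separate events and cannot be set against that rate.

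The slope on Hey2 in TG cultures differed between the serum stimulated and the unstimulated set for 5 probe sets (limma, tested as a difference of slopes). Serum minus unstimulated, the differences were 1.63 for Mir208a and 1.12, −1.57, −2.25 and −2.28 for probe sets 10339920, 10341004, 10404270 and 10404277, which are unnamed here. These probe sets were dim, with means between 2.60 and 4.86 over the TG arrays.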

How the results depend on the processing

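Counts are probe sets called by limma. For Hey2 unstimulated (926), the count was 1666 without dim probe sets, 1613 with probe sets of 1 symbol, 128 on ranks of Hey2, and 0 without the 2 farthest or the low arrays, with 0 to 514 leaving out each array. For Hey2 with serum (887) these were 2693, 2024, 0, 0 and 0, with 2121 under a variance trend, 546 with arrays centred (39.0% rising against 49.4%), and 0 to 99 leaving out each array. Over both sets, Hey2 (4443) gave 168 without the low arrays and 2831 to 4384 leaving out each array, and the myocyte mean (5017) gave 388 and 3194 to 4976. Hey2 at an equal myocyte mean (0) gave 3 centred, 8 without dim probe sets, 8 with 1 symbol, 1 with the trend, 3 with array weights, 1 with Myl2 as the measure, and 0 to 1 leaving out each array. The myocyte mean at equal Hey2 (262) gave 471 without dim probe sets, 433 with 1 symbol, 458 with scaled sets, 681 with array weights, 0 without the low arrays, and 15 to 291 leaving out each array. In WT (1600) the count was 2442 without dim probe sets and 1037 to 1566 leaving out each array, with 78.8% rising when centred against 66.2%. The set difference (5) gave 20 with scaled sets and 0 to 6 leaving out each array. TG against WT with serum (3) gave 5 centred and 1 to 3 leaving out each array. Samples that share a number in the labels were not alike in the data (r between −0.23 and 0.19 for TG, and 0 of 6 cultures correlated best with their own number). A figure legend of the study numbers the unstimulated arrays otherwise than the labels do. Shared label numbers may therefore not mark partners, and this check cannot show that cultures were unpaired. With a replicate block on the label numbers the counts were 194 for Hey2 and 1013 for the myocyte mean over both sets. They were 0 for the myocyte mean at equal Hey2, 414 in WT, 0 for the set difference and 1 for TG against WT with serum. Of single gene values, 2243 kept direction and call, 537 lost the call, 17 gained it, and 1 reversed: Jun on the myocyte mean at equal Hey2 went from −0.72 to 0.10 without the low arrays. The cause was not tested for any of these. The low arrays and Myl2 as the measure were chosen after seeing the data.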

Other observations

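The remaining lists are given by their slopes on Hey2 over both sets of TG cultures, where 16.5% of all genes were called. Of 15 ion channel genes of the myocyte membrane 6 rose and none fell, with a median slope of 0.30, which was −0.10 at an equal myocyte mean. Of 19 interferon stimulated genes 1 fell, of 13 neural and Schwann cell genes 1 fell, and of 7 blood and erythroid genes none was called.

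Genes the study itself named were looked up as lists added after values were seen, so their counts are no independent evidence. The study picked them by comparing TG with WT cultures on these same arrays. The counts here are of slopes on Hey2 among TG cultures, where 16.5% of all genes were called. Of 10 phosphatase genes 1 rose (Dusp8), of 8 aquaporins 1 fell (Aqp8), of 12 adenylate cyclase genes none was called, and of 12 eye and gut genes 4 fell. Of 8 autophagy genes 1 rose (Atg4d) and of 15 mitochondrial genes 2 rose (Ndufs8 and Aifm1), and of 6 single genes none was called by limma. TG minus WT with serum, the difference was above 0 for 0 of 8 aquaporins, 0 of 12 adenylate cyclase genes and 0 of 12 eye and gut genes. It was above 0 for 10 of 10 phosphatase, 8 of 8 autophagy, 15 of 15 mitochondrial and 4 of 6 single genes. No member of these lists was called in that comparison, by an adjusted p under 0.05 for each gene. The study chose its single genes by a p-value without adjustment and checked Ndufs5, Ndufv3 and Efcab2 by qRT-PCR. The other lists came from gene sets that it tested as wholes. As the criteria differ, the absence of calls here cannot be set against the results of the study.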
